A study of Mus musculus with 15 samples.

Results

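The genes described are 9 secreted proteins of the BMP, activin and TGF-beta families, taken as a list of symbols: the ligands Bmp2, Bmp4, Tgfb2, Tgfb3 and Inhba and the antagonists and binding proteins Grem1, Chrdl1, Fst and Fstl1. They were chosen by name and without a cutoff on level, but with earlier results of these data known. All 9 were listed, among 10222 gene symbols. RNA was sequenced from 5 populations, each as 3 libraries from independent experiments, sorted from C57BL/6 mice heterozygous for a citrine reporter in Il33. No treatment, age or sex is given. Il33+ and Il33- WAT-MSC were stromal cells of white adipose tissue (WAT, labelled mesenteric), negative for CD45, EpCAM, CD31 and CD24, positive for PDGFRα, CD34, Sca1 and podoplanin, and split by the reporter. Lung Il33+ MSC were reporter-positive stromal cells of the lung, WAT endothelial cells were sorted as CD31+ and lung epithelial cells as EpCAM+. The reporter allele was shared by all 5 populations, and its stromal gate holds any cell with those markers.

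Ligands of this superfamily are secreted dimers that assemble type I and type II serine/threonine kinase receptors. BMPs then act through Smad1 and Smad5, TGF-betas and activins through Smad2 and Smad3. Antagonists such as gremlin, the chordin family and follistatin bind the ligand outside the cell and keep it from its receptors. In adipose tissue BMP4 is known to favor commitment of stromal precursors to the adipocyte lineage, whereas TGF-beta and activin A hold precursors back from it. In the lung these ligands take part in branching and in the deposition of matrix.

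Values are RPKM, reads scaled to transcript length in kilobases and to the mapped reads of the library, summed over the listed transcripts of a symbol. RPKM is per length, so levels of different genes are set side by side. The RNA was amplified, and the transcript lengths used are not given in the sources used here. Ranks and orders between genes are therefore a description only. Libraries held 42711843 to 60773158 alignments, and replicates correlated at 0.773 to 0.962. Il33 itself followed the sort, at 38.7, 78.5 and 41.9 RPKM in Il33+ WAT-MSC and 6.76, 4.31 and 4.49 in Il33- WAT-MSC. Summed RPKM of 10 stromal markers ranged from 4880 to 10205 in the 3 stromal populations, from 2079 to 4227 in WAT endothelial cells and from 115 to 210 in lung epithelial cells. Endothelial markers (10 genes) summed to at least 682 in the endothelial libraries and at most 108 elsewhere. WAT endothelial libraries therefore carried stromal transcripts, with replicate 3 highest, and this is given beside the result that it touches. Genes used by every cell were at 0 in no library (Gapdh at 37.3 RPKM or more).

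On GRCm38.p6 the ligand genes lie at chr2:133552159-133562896 (Bmp2), chr14:46383525-46390669 (Bmp4), chr1:186622787-186709697 (Tgfb2), chr12:86056743-86079041 (Tgfb3) and chr13:16004256-16031609 (Inhba). The antagonist genes lie at chr2:113748675-113758648 (Grem1), chrX:143285674-143394263 (Chrdl1), chr13:114452262-114458989 (Fst) and chr16:37777055-37836516 (Fstl1). Levels per length differed widely between the 9 genes. Fstl1, a secreted glycoprotein related to follistatin, stood 39th of 10222 genes by mean RPKM in Il33+ WAT-MSC. Bmp4 stood 604th and Grem1 4520th there. In all 5 populations the mean of Bmp4 was above that of Bmp2, and the mean of Tgfb3 was above that of Tgfb2.

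**Figure D1:**
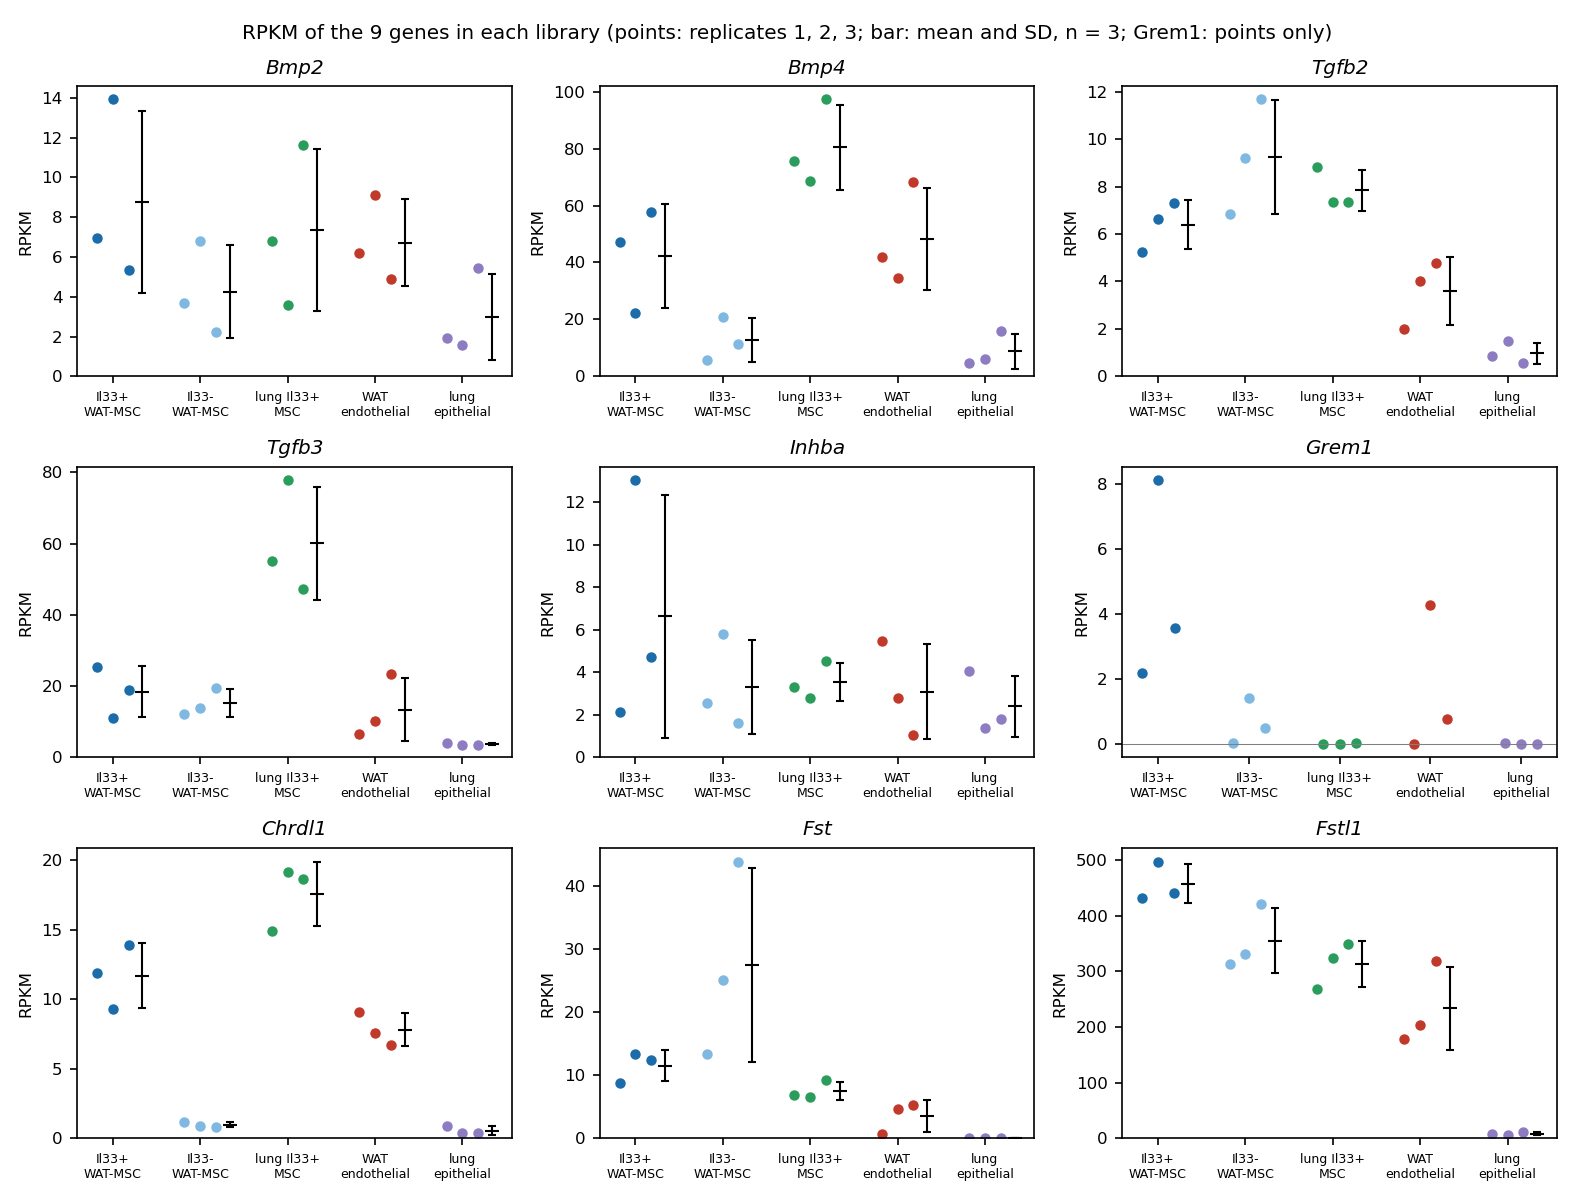
RPKM (y axis, from each gene's own range) of the 9 genes in the 15 libraries by population (x axis), with points for replicates 1, 2 and 3 and a bar for the mean and SD of 3 libraries (Grem1 has points only). Chrdl1 lies between 9.28 and 13.9 RPKM in Il33+ WAT-MSC and between 0.84 and 1.17 in Il33- WAT-MSC, and Tgfb3 and Bmp4 are highest in lung Il33+ MSC.

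Among the ligands, Bmp4 was 75.6, 68.7 and 97.3 RPKM in replicates 1, 2 and 3 of lung Il33+ MSC, above every other library. Its next levels, 42.0, 34.4 and 68.3 RPKM in WAT endothelial cells and 47.1, 22.2 and 57.7 in Il33+ WAT-MSC, overlapped each other. Bmp4 was lower again, and without overlap, in Il33- WAT-MSC, at 5.88, 20.9 and 11.5 RPKM. Lung epithelial cells, at 4.69, 5.94 and 15.8 RPKM, overlapped that population.

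Tgfb3 was highest in lung Il33+ MSC as well, at 55.2, 77.8 and 47.3 RPKM. Both WAT-MSC populations and WAT endothelial cells lay together, at 25.3, 11.1 and 19.0, at 12.2, 13.9 and 19.6, and at 6.46, 10.3 and 23.3 RPKM, respectively. The epithelial libraries were lowest, at 4.14, 3.50 and 3.52 RPKM. Tgfb2 had another order. It was 6.84, 9.22 and 11.7 RPKM in Il33- WAT-MSC and 8.84, 7.33 and 7.36 in lung Il33+ MSC, which overlapped, then 5.25, 6.64 and 7.29 in Il33+ WAT-MSC. The lower levels of Tgfb2, 1.99, 4.02 and 4.79 RPKM in WAT endothelial cells and 0.84, 1.47 and 0.58 in epithelial cells, did not overlap their neighbors.

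Bmp2 was 6.96, 13.9 and 5.33 RPKM in Il33+ WAT-MSC, 6.82, 3.57 and 11.6 in lung Il33+ MSC and 6.19, 9.11 and 4.87 in WAT endothelial cells. Its levels in Il33- WAT-MSC (3.71, 6.81 and 2.25 RPKM) and in epithelial cells (1.92, 1.56 and 5.47 RPKM) completed an order in which every neighbor overlapped. Inhba, which encodes the subunit of activin A, showed no separate neighbors either, with means from 6.63 ± 5.71 RPKM (SD, n = 3) in Il33+ WAT-MSC to 2.41 ± 1.44 in epithelial cells. Replicate 2 of Il33+ WAT-MSC held the highest value of Bmp2 and of Inhba (13.1 RPKM) in the series, and of Grem1 and Il33.

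Of the antagonists, Fstl1 was 432, 497 and 441 RPKM in Il33+ WAT-MSC and 313, 332 and 421 in Il33- WAT-MSC, 267, 323 and 348 in lung Il33+ MSC and 179, 204 and 318 in WAT endothelial cells. Only the first of these populations and the epithelial cells, at 8.06, 5.58 and 10.6 RPKM, were separate from their neighbors. Chrdl1, a chordin-like protein that binds BMPs, was 14.9, 19.2 and 18.6 RPKM in lung Il33+ MSC, 11.9, 9.28 and 13.9 in Il33+ WAT-MSC and 9.06, 7.60 and 6.73 in WAT endothelial cells. It was 1.17, 0.87 and 0.84 RPKM in Il33- WAT-MSC and 0.92, 0.40 and 0.36 in epithelial cells. The 3 higher populations did not overlap one another, and each lay above both lower ones. After median-ratio scaling, and with the most abundant transcript, Il33+ WAT-MSC and WAT endothelial cells overlapped.

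Fst, which encodes the activin-binding protein follistatin, was 13.4, 25.2 and 43.8 RPKM in Il33- WAT-MSC, 8.73, 13.4 and 12.5 in Il33+ WAT-MSC and 6.80, 6.60 and 9.20 in lung Il33+ MSC. It was 0.62, 4.62 and 5.25 RPKM in WAT endothelial cells and 0.06 to 0.07 in epithelial cells. Neighbors overlapped among the 3 stromal populations and not below them. Grem1, encoding the BMP antagonist gremlin, was 2.18, 8.11 and 3.57 RPKM in Il33+ WAT-MSC and 0.04, 1.43 and 0.51 in Il33- WAT-MSC. In WAT endothelial cells it was listed at 0 in replicate 1 and at 4.27 and 0.77 RPKM in replicates 2 and 3. In the lung populations Grem1 was listed at 0 in 2 libraries of each and at 0.02 RPKM in the third. Over the 9 genes, 15 of 36 pairs of neighboring populations did not overlap. The count was 16 after scaling the libraries by median ratios and 11 with the most abundant transcript of each symbol. No share over all genes was computed for such neighbors, so the count is a description only.

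Genome windows of 3 genes whose levels follow different orders are shown here as a reference for the loci, since the RNA data do not measure promoter activity. RefSeq promoter windows on GRCm38.p6, from 250 bases before to 50 after the annotated start, were found for 5 of the 9 genes, and Bmp2, Chrdl1, Fst and Tgfb3 had none. The motifs searched on both strands were the TATA box letters TATAAA, held by 13.6% of 32851 promoter windows, the GC box letters GGGCGG, held by 35.7%, and the palindrome GGCGCC, held by 11.9%. In the Grem1 window (chr2:113758599-113758898, minus strand), GGGCGG begins 173, 131 and 107 bases before the start and GGCGCC 78 bases before it. Bmp4 (chr14:46390620-46390919, minus strand) has GGGCGG 38 bases before the start, and Tgfb2 (chr1:186705940-186706239, minus strand) has TATAAA 31 bases before it. The Bmp4 start used, chr14:46390669, is that of the listed transcript with 4.18 to 16.7% of its RPKM. The other listed Bmp4 transcript, with 83.3 to 95.8%, starts at chr14:46390550. Motifs on either strand are in capitals, and none overlaps another.
Grem1: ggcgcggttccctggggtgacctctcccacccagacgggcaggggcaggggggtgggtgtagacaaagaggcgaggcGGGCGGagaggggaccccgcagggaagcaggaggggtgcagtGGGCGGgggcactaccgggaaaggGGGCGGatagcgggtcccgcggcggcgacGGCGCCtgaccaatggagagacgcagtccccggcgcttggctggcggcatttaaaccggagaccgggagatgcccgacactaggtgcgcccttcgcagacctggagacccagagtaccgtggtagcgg
Bmp4: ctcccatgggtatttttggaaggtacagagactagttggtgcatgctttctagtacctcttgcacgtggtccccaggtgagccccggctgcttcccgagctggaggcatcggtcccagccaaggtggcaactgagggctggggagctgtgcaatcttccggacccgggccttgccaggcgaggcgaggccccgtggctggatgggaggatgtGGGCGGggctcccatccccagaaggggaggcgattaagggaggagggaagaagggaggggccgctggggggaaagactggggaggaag
Tgfb2: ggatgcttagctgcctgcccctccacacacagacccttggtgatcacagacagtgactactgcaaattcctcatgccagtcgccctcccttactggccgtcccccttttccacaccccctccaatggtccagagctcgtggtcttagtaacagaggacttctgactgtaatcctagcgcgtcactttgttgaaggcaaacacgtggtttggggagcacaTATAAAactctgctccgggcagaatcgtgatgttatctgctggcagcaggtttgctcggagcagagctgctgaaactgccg
The windows of Fstl1 and Inhba, not printed, held 2 copies of GGGCGG and 1 of TATAAA. GC content was 70.7% in the Grem1 window, 64.0% in that of Bmp4 and 54.3% in that of Tgfb2, against a median of 52.7% over all windows.

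The Il33+ and Il33- WAT-MSC were compared to ask which ligands and antagonists differ with the reporter in 1 tissue and 1 gate. Chrdl1 was higher in Il33+ WAT-MSC, with a 12.2-fold difference of the means (11.7 ± 2.32 against 0.96 ± 0.182 RPKM, SD, n = 3) and a log2 fold change of 2.68 on the scale of log2(RPKM + 1) (SE 0.31, limma, adjusted p = 0.00212). It was the 1 gene of the 9 past the threshold of 0.05, against 1.57% of the 8448 genes tested (0.923% higher and 0.651% lower). The added 1 understates changes of low genes, and with 0.1 in its place the value of Chrdl1 was 3.47. Chrdl1 reached 1 RPKM in 1 of 3 Il33- WAT-MSC libraries, so that the Il33+ WAT-MSC libraries carried it through the filter on low values, and it passed the threshold with no filter too. In these bulk libraries, fewer cells that express a gene and less of its RNA per cell cannot be told apart.

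Separate ranges in these populations were found for 4 of the 9 genes (Bmp4, Grem1, Chrdl1 and Fstl1), against 17.5% of all genes tested. Grem1, at 0.04, 1.43 and 0.51 RPKM in Il33- WAT-MSC, passed the filter on low values through the Il33+ WAT-MSC libraries, as Chrdl1 did. The count of 4 is therefore a description. Bmp4 had a log2 fold change of 1.71 (SE 0.44, limma, adjusted p = 0.0977) and Grem1 of 1.71 (SE 0.47, limma, adjusted p = 0.131), neither past the threshold. Scaling the libraries by median ratios carried Bmp4 past it, with limma adjusted p = 0.0472. A block on the replicate number carried both Bmp4 and Grem1 past it (limma adjusted p = 0.0327 for Grem1), although the numbers are not stated to be pairs. Fst had a value of -1.05 (SE 0.38, limma, adjusted p = 0.28), Bmp2 of 0.88 (SE 0.41) and Fstl1 of 0.37 (SE 0.23). The remaining values were -0.45 for Tgfb2, 0.22 for Tgfb3 and 0.66 for Inhba. The median over the 5 ligands was 0.66 and over the 4 antagonists 1.04, beside -0.01 over all genes tested.

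**Figure D2:**
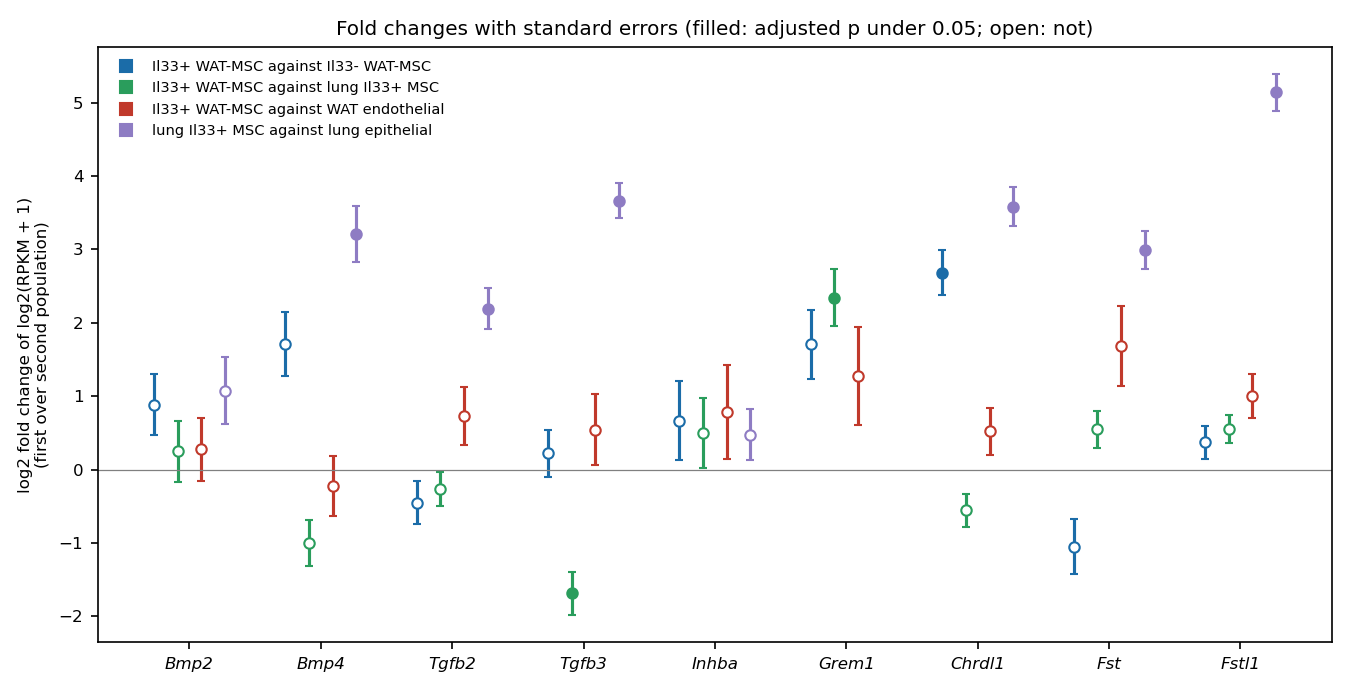
Log2 fold changes on the log2(RPKM + 1) scale (y axis, first over second population, bars for SE) of the 9 genes (x axis) in the 4 comparisons; filled points passed an adjusted p of 0.05 in limma. Chrdl1 stands at 2.68 between Il33+ and Il33- WAT-MSC, no gene is filled against WAT endothelial cells, and 6 are filled between lung Il33+ MSC and lung epithelial cells.

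Other genes of the pathway were taken from lists by role. Among antagonists and modulators, Bmper, encoding a BMP-binding endothelial regulator, was lower in Il33+ WAT-MSC, at 4.67, 3.31 and 5.40 RPKM against 11.3, 27.1 and 31.0 in Il33- WAT-MSC (log2 fold change -2.05, SE 0.37, limma, adjusted p = 0.0185).

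No receptor (0 of 12), latent TGF-beta binding or activation gene (0 of 8) or other ligand (0 of 5) passed the threshold. Of 11 SMADs and regulators, Skil, a repressor of SMAD transcription, was higher (log2 fold change 1.23, SE 0.25, limma, adjusted p = 0.033). Of 8 TGF-beta target genes, Ctgf, a matricellular protein (1.57, SE 0.32, limma, adjusted p = 0.037), and Tgfbi (1.42, SE 0.28, limma, adjusted p = 0.0317) were higher. Of 5 BMP target genes, Atoh8, a transcription factor, was lower (-1.73, SE 0.33, limma, adjusted p = 0.026). These 4 and Bmper passed the threshold in 5 to 9 of 15 alternative settings, whereas Chrdl1 passed it in all 15.

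Markers of other cells also differed between the 2 WAT-MSC populations. Summed RPKM of the 9 mesothelial markers in the list of values (of 10 chosen) was 63.2, 160 and 177 in Il33+ WAT-MSC and 41.5, 54.4 and 37.3 in Il33- WAT-MSC, with 8 of 9 means higher in Il33+ WAT-MSC and 2 of 8 tested genes past the threshold. Krt19 on this list is made by epithelium too. Msln was 1.01, 4.62 and 9.04 RPKM against 0.01, 1.17 and 2.39. Upk3b was 7.13, 13.2 and 20.8 RPKM against 0.00, 3.44 and 3.20. Wt1 went the other way in its mean, at 9.80, 15.1 and 10.6 RPKM against 23.6, 13.5 and 10.7. Pericyte and smooth muscle markers summed to 33.3 to 39.7 RPKM against 6.89 to 18.1, with 1 of 5 tested higher. Most of the sum in Il33+ WAT-MSC was Abcc9 (17.6 to 20.7 against 1.29 to 1.77) and Rgs5 (8.29 to 16.4 against 1.80 to 6.83). Leukocyte markers summed to 10.6 to 29.0 against 36.3 to 82.3, with 0 of 3 past the threshold. Endothelial markers summed to 22.9 to 45.7 against 13.8 to 29.8, with 9 of 10 means higher and 0 of 8 tested past the threshold. Of the 10 stromal markers, 8 had higher means and 1 passed the threshold. Pi16 was 81.0, 60.8 and 85.7 RPKM against 10.1, 12.7 and 14.5, and Dpp4 6.50 to 9.31 against 2.37 to 2.85. The part of all these cells, stromal subsets included, in the results for Chrdl1, Grem1 and Bmp4 was not tested.

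**Figure D3:**
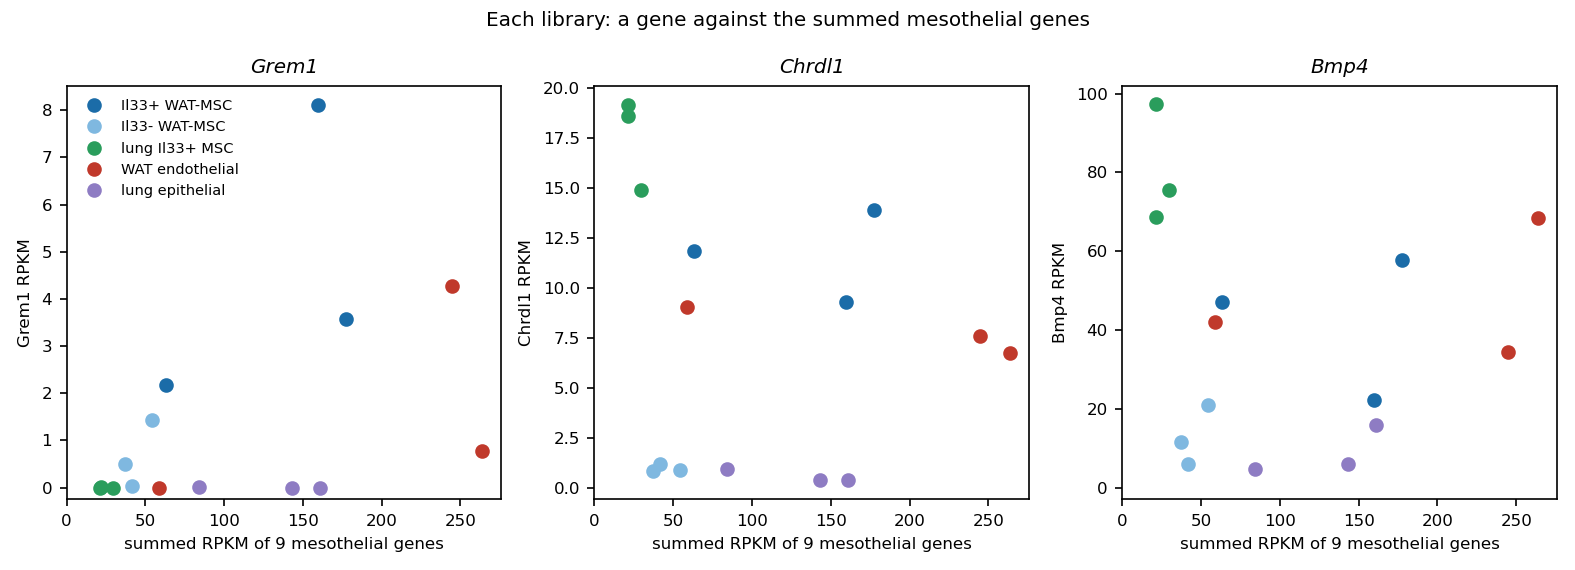
RPKM of Grem1, Chrdl1 and Bmp4 (y axes) against the summed RPKM of 9 mesothelial markers (x axes), with 1 point for each of 15 libraries, colored by population. Grem1 is at most 0.02 RPKM in the 3 lung Il33+ MSC libraries, where the sum is 29.3 or lower, and also in the 3 lung epithelial libraries. The sum is 84.0 to 161 in the epithelial libraries, of which Krt19, also made by epithelium, is 75.5, 134 and 153 RPKM. Lung Il33+ MSC have the highest Chrdl1 and Bmp4 with the lowest sums.

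The comparison of Il33+ WAT-MSC with lung Il33+ MSC asks how reporter-positive stroma differs between tissues. Tgfb3 was 3.25-fold higher in the lung by the ratio of means (60.1 ± 15.8 against 18.5 ± 7.13 RPKM, SD, n = 3), a log2 fold change of -1.69 for WAT over lung (SE 0.30, limma, adjusted p = 0.00763). Grem1 was higher in Il33+ WAT-MSC, with a log2 fold change of 2.34 (SE 0.39, limma, adjusted p = 0.00554). Because 2 lung libraries listed Grem1 at 0, this value depends on the number added and reached 5.27 with 0.1. Grem1 also passed the filter on low values only through the Il33+ WAT-MSC libraries, where it was high, and it passed the threshold with no filter too. These 2 of 9 genes passed the threshold, against 6.00% of the 8554 tested (2.50% higher and 3.50% lower in Il33+ WAT-MSC). Without replicate 2 of lung Il33+ MSC, Tgfb3 had a limma adjusted p = 0.0503.

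Ranges were separate for 6 of the 9 genes (Bmp4, Tgfb2, Tgfb3, Grem1, Chrdl1 and Fstl1), against 23.1% of all genes tested. Grem1 entered this count only through the Il33+ WAT-MSC libraries, so the count is a description. Bmp4 had a value of -1.001 (SE 0.32, limma, adjusted p = 0.116), Chrdl1 of -0.56 (SE 0.23, limma, adjusted p = 0.229) and Fstl1 of 0.55 (SE 0.19, limma, adjusted p = 0.151). With quantile normalization Fstl1 passed the threshold, at limma adjusted p = 0.0176. Fst had a value of 0.55, Tgfb2 of -0.26, Bmp2 of 0.25 and Inhba of 0.49. Medians were -0.26 over the ligands and 0.55 over the antagonists, beside 0.03 over all genes. The Il33+ WAT-MSC libraries are the same as in the comparison with Il33- WAT-MSC.

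Among 7 other ligands tested, Bmp5 and Bmp3 were lower and Bmp7 higher in Il33+ WAT-MSC. Bmp5 was 0.49, 0.02 and 1.01 RPKM in Il33+ WAT-MSC and 9.22, 10.7 and 10.2 in lung Il33+ MSC (log2 fold change -2.92, SE 0.31, limma, adjusted p = 0.000453). Bmp3 was 0.27, 2.31 and 0.46 RPKM against 10.97, 8.21 and 10.3 (-2.56, SE 0.38, limma, adjusted p = 0.00268). Bmp7 was 3.09, 9.69 and 3.28 RPKM against 0.56, 0.36 and 0.34 (2.01, SE 0.39, limma, adjusted p = 0.0125), and missed the threshold without replicate 2 of lung Il33+ MSC (limma adjusted p = 0.0616). Bmp5, Bmp3 and Bmp7 each passed the filter on low values only through the population where they were high, and each passed the threshold with no filter too. Lung epithelial cells held both lung-side ligands too, with Bmp5 at 4.95, 9.64 and 17.2 RPKM and Bmp3 at 8.62, 11.8 and 9.49.

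Among antagonists and modulators, Nbl1, a DAN family BMP antagonist, was lower in Il33+ WAT-MSC (-1.17, SE 0.24, limma, adjusted p = 0.0172) and Bmper higher (1.18, SE 0.29, limma, adjusted p = 0.0396), although Bmper missed the threshold in 9 of 14 alternatives. Nbl1 missed it in 3 of 15. Thbs1, thrombospondin 1, which activates latent TGF-beta, was higher (1.64, SE 0.30, limma, adjusted p = 0.00866), the 1 of 8 in its list. Of 8 TGF-beta targets, the matrix gene Postn was higher (2.96, SE 0.25, limma, adjusted p = 0.000147) and Ctgf lower (-1.85, SE 0.26, limma, adjusted p = 0.00196). None of 12 receptors, 11 SMADs and regulators or 5 BMP targets passed the threshold.

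**Figure D4:**
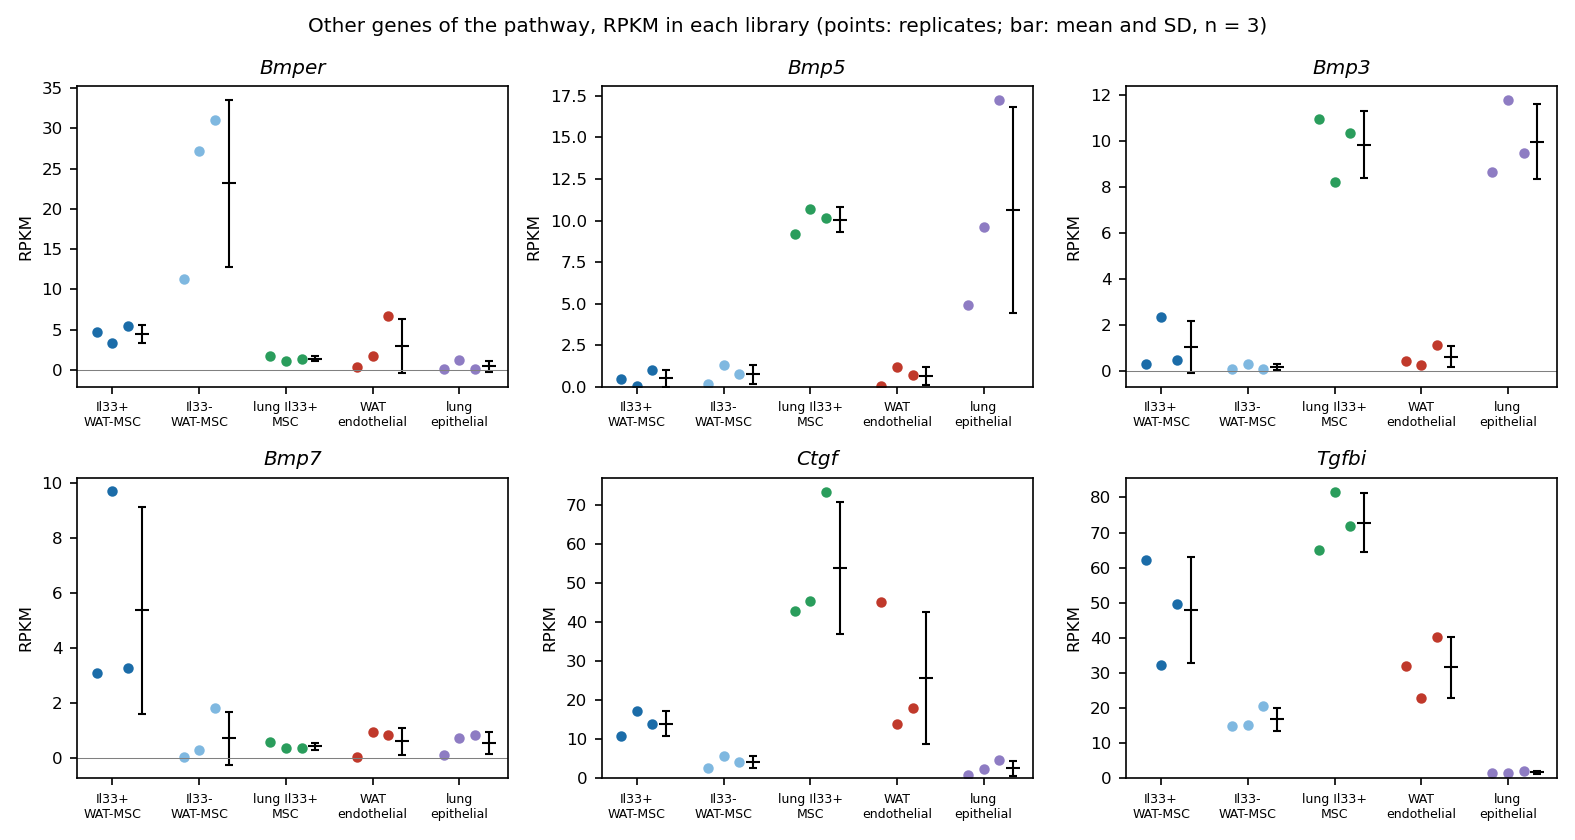
RPKM (y axis, from each gene's own range) of Bmper, Bmp5, Bmp3, Bmp7, Ctgf and Tgfbi in the 15 libraries by population (x axis), with points for replicates 1, 2 and 3 and a bar for the mean and SD of 3 libraries. By mean, Ctgf and Tgfbi are highest in lung Il33+ MSC, Bmper in Il33- WAT-MSC and Bmp7 in Il33+ WAT-MSC, while Bmp5 and Bmp3 are at 4.95 RPKM or more only in the lung libraries.

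Mesothelial markers stood beside this comparison too, summing to 63.2 to 177 RPKM in Il33+ WAT-MSC and 21.4 to 29.3 in lung Il33+ MSC, with 6 of 8 tested genes higher. Epithelial markers summed to 73.2 to 145 RPKM against 179 to 544 (2 of 3 tested lower in Il33+ WAT-MSC). The sum in Il33+ WAT-MSC was mostly Scgb1a1 (71.2, 78.3 and 134 RPKM), with Epcam at most 0.23 and Cdh1 at most 0.06. Leukocyte markers summed to 10.6 to 29.0 RPKM against 188 to 196 (2 of 5 lower) and endothelial markers to 22.9 to 45.7 against 49.1 to 80.3 (4 of 8 lower). Pericyte and smooth muscle markers summed to 33.3 to 39.7 RPKM against 106 to 114 (1 of 6 higher and 2 lower). Abcc9 (77.0 to 93.0 RPKM) and Kcnj8 (14.8 to 23.4) made up most of the lung sum, whereas Rgs5 was 8.29 to 16.4 RPKM in Il33+ WAT-MSC and 0.18 to 0.81 in lung Il33+ MSC. Their part in the results for Grem1, Bmp7, Tgfb3, Bmp3 and Bmp5 was not tested.

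The comparison of Il33+ WAT-MSC with WAT endothelial cells sets stroma against endothelium of 1 tissue. None of the 9 genes passed the threshold in limma, against 3.90% of the 8665 genes tested (0.565% higher and 3.34% lower in Il33+ WAT-MSC), and 2 (Fst and Fstl1) had an unadjusted p under 0.05. Fst had a log2 fold change of 1.68 (SE 0.54, limma, adjusted p = 0.159) and Fstl1 of 1.01 (SE 0.30, limma, adjusted p = 0.131). A single fit of all 15 libraries carried both past the threshold, at limma adjusted p = 0.0331 for Fst and 0.0213 for Fstl1, and Fstl1 also passed without replicate 3 of the endothelial cells. Chrdl1 had a value of 0.52, Bmp4 of -0.23, Tgfb2 of 0.73, Grem1 of 1.28, Inhba of 0.78, Tgfb3 of 0.54 and Bmp2 of 0.27. Ranges were separate for Tgfb2, Chrdl1, Fst and Fstl1, 4 of the 9 against 23.2% of all genes tested. Those of Chrdl1 overlapped under median-ratio scaling and with the most abundant transcript, and those of Fst with the most abundant transcript. Medians were 0.54 over the ligands and 1.14 over the antagonists, beside 0.18 over all genes, which median-ratio scaling moved to 0.04.

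Endothelial replicates 1, 2 and 3 held the stromal markers at a median of 30.2%, 33.0% and 65.7% of their mean level in Il33+ WAT-MSC. Fstl1 stood at 39.2%, 44.6% and 69.7% on that measure and Tgfb3 at 35.0%, 55.9% and 126%. Bmp4 stood at 99.3%, 81.2% and 161% and Chrdl1 at 77.5%, 65.0% and 57.6%. Pericyte and smooth muscle markers summed to 220 to 294 RPKM in the endothelial libraries and mesothelial markers to 58.7, 245 and 264, the lowest in replicate 1, which listed Grem1 at 0. The part of these cells in the endothelial levels was not tested.

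Of 12 receptors, Eng, the TGF-beta co-receptor endoglin, was lower in Il33+ WAT-MSC (14.4, 9.19 and 15.9 against 46.5, 48.1 and 57.9 RPKM, log2 fold change -1.90, SE 0.29, limma, adjusted p = 0.00855). Bmpr1a, a type I BMP receptor, was higher (1.32, SE 0.27, limma, adjusted p = 0.0296). Of 5 BMP targets, Hey1 was lower (-2.23, SE 0.42, limma, adjusted p = 0.0211). The smooth muscle actin gene Acta2, listed under both TGF-beta targets and pericyte markers, was lower (-3.16, SE 0.38, limma, adjusted p = 0.00223). Fbn1, fibrillin 1, to which latent TGF-beta is tethered, was higher (1.25, SE 0.29, limma, adjusted p = 0.0489). Of 15 alternatives, Fbn1 missed the threshold in 10, Bmpr1a in 6 and Hey1 in 3, whereas Eng and Acta2 passed it in all 15. Hey1, with a mean of 0.82 RPKM in Il33+ WAT-MSC, passed the filter on low values through the endothelial libraries.

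The comparison of lung Il33+ MSC with lung epithelial cells keeps the tissue the same. Of the 8 genes that passed the filter on low values (Grem1 did not), 6 were higher in the stroma, against 43.0% of 9352 genes called in either direction (24.4% higher and 18.5% lower). Fstl1 was 313 ± 41.6 against 8.08 ± 2.51 RPKM (SD, n = 3), 38.7-fold, with a log2 fold change of 5.14 (SE 0.25, limma, adjusted p = 8.73e-07). Tgfb3 was 16.2-fold higher (3.67, SE 0.24, limma, adjusted p = 3.32e-06) and Bmp4 9.14-fold (3.21, SE 0.38, limma, adjusted p = 0.000117). Chrdl1 (3.58, SE 0.27, limma, adjusted p = 6.34e-06), Fst (2.99, SE 0.26, limma, adjusted p = 1.67e-05) and Tgfb2 (2.19, SE 0.28, limma, adjusted p = 0.000176) were higher too. Chrdl1 and Fst, under 1 RPKM in all 3 epithelial libraries, passed the filter only through the stromal libraries. Tgfb2, at 0.84, 1.47 and 0.58 RPKM in epithelial cells, needed the stromal libraries to pass it too. The part of these genes in the count of 6 is therefore a description, and all of them passed the threshold with no filter as well.

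Bmp2 had a value of 1.07 (SE 0.46, limma, adjusted p = 0.0894) and passed the threshold in 3 of 15 alternatives. Inhba had a value of 0.47 (SE 0.34, limma, adjusted p = 0.304). The 6 higher genes were those without overlap, against 53.4% of all genes tested. Medians were 2.19 over the ligands and 3.58 over the 3 antagonists tested, beside 0.13 over all genes. Median-ratio scaling moved the median of all genes to -0.14 and the calls from 2285 higher and 1734 lower to 1815 higher and 2286 lower, and the same 6 genes were higher. Stromal markers stood at a median of 1.22 to 2.42% of their stromal level in the epithelial libraries. These lung stromal libraries are also those compared with Il33+ WAT-MSC.

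Other genes of the pathway were called higher in the lung stroma than in the epithelium for 7 of 9 antagonists and modulators and 6 of 7 latent TGF-beta genes. The same held for 10 of 12 receptors, 4 of 11 SMADs and regulators and 6 of 8 TGF-beta targets, with none lower. Of all 9352 genes tested, 24.4% were called higher. Bmp1, Htra1 and Fstl3 had means of 0.93, 0.95 and 0.99 RPKM in epithelial cells, so the stromal libraries helped carry them through the filter on low values. The counts are therefore a description. The median log2 fold changes of these lists were 3.26, 2.71, 1.10, 0.71 and 2.64. Leading genes were Htra3 (4.89, SE 0.32) and Nbl1 (4.76, SE 0.44) among the antagonists and modulators. Ltbp4, a latent TGF-beta binding protein (5.15, SE 0.39), Fbn1 (4.54, SE 0.22) and Ltbp1 (3.88, SE 0.30) led the latent TGF-beta genes.

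The receptors Tgfbr3, betaglycan (3.23, SE 0.22), Tgfbr2 (1.77, SE 0.19) and Eng (1.76, SE 0.26) led theirs. Ski (2.34, SE 0.28), Skil (1.88, SE 0.20) and Smad1 (1.41, SE 0.26) were the highest of the SMAD group, and Col1a1 (6.24, SE 0.34), Tgfbi (4.79, SE 0.22) and Ctgf (4.04, SE 0.40) of the TGF-beta targets. Col1a1 is also on the stromal marker list. Of 4 BMP targets tested, Id3, an inhibitor of DNA binding, was higher (3.88, SE 0.23). Among 7 other ligands Gdf10 was higher (4.78, SE 0.22) and Inhbb, another activin subunit, lower (-1.47, SE 0.35, limma, adjusted p = 0.00691), with a median of 0.07. Gdf10 had a mean of 0.67 RPKM in epithelial cells and Inhbb of 0.21 in lung Il33+ MSC. Each therefore passed the filter on low values through the population where it was high.

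Transcripts of Fst differ in the protein they encode. The long form of follistatin ends in an acidic tail, whereas the short form lacks it and binds heparan sulfate on cell surfaces. Of 3 listed Fst transcripts, 1 has its stop codon across the junction of exons 5 and 6 and encodes the short form. The other 2 read on for 83 bases, stop codon included, and differ from each other in the start of exon 1 (chr13:114458949 or chr13:114458586), the start of exon 5 (chr13:114454510 or chr13:114454507) and the end of exon 6 (chr13:114452970 or chr13:114453342). The last 30 bases of exon 5 (chr13:114454280-114454510 or to 114454507, minus strand, GRCm38) are printed in lower case, followed in capitals by the coding bases of exon 6 through the stop codon, to show where the forms part.
Fst short form: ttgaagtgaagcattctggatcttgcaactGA
Fst long form: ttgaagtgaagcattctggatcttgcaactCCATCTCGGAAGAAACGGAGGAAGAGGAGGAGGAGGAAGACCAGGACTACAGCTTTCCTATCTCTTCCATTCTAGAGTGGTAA
The long sequence is the same for both long transcripts in this stretch.

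The short form made up 14.3%, 28.6% and 36.5% of Fst RPKM in replicates 1, 2 and 3 of Il33+ WAT-MSC and 77.2%, 28.9% and 30.02% in Il33- WAT-MSC. In lung Il33+ MSC it made up 9.12%, 86.4% and 30.7%, and in WAT endothelial cells 0%, 65.2% and 98.5%. Populations overlapped in this share, and single libraries set the extremes. How the reads of the shared exons were divided between transcripts is not given in the sources used here, so the shares carry that uncertainty. Replicate 3 of Il33- WAT-MSC, with the highest Fst of all libraries, held both forms, at 13.2 RPKM for the short form and 15.4 and 15.3 RPKM for the long transcripts.

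**Figure D5:**
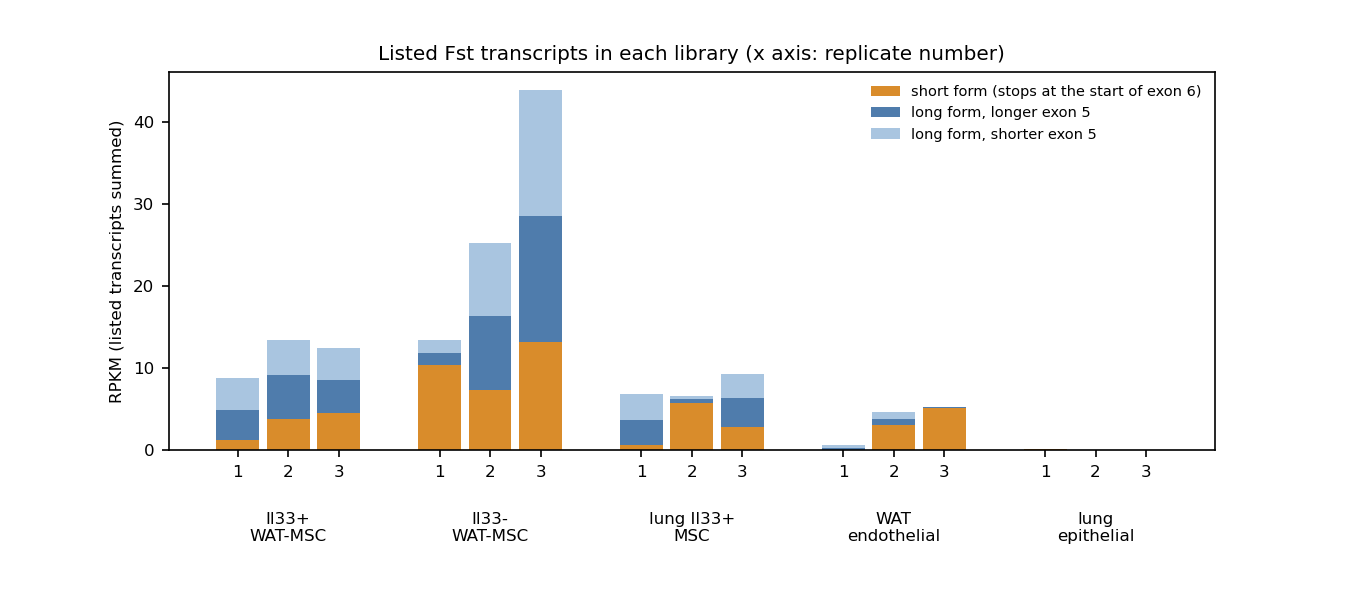
RPKM (y axis) of the 3 listed Fst transcripts, stacked, in each library (x axis, replicates 1 to 3 by population). The short form takes 77.2% of replicate 1 of Il33- WAT-MSC and 86.4% of replicate 2 of lung Il33+ MSC but 28.9% and 30.7% of other libraries of those populations.

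For other genes the transcripts kept steadier shares. Of 2 listed transcripts of Bmp4, 1 made up 83.3 to 95.8% of its RPKM, and of 2 of Tgfb2, 1 made up 61.7 to 69.4%. In Chrdl1, 1 of 2 made up 64.6 to 94.6%.

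Across the 15 libraries, the genes whose log2(RPKM + 1) followed each of the 9 most closely are given as a description. These libraries share 5 populations, so such values mostly follow the differences between populations. Pearson r for Fstl1 was 0.995 with Dpt, 0.994 with Fbn1 and 0.992 with Cd248, all genes of stromal cells. For Chrdl1 it was 0.949 with Skil and 0.947 with Dennd4a, and for Bmp4 0.938 with Slco2b1, 0.919 with Cst3 and 0.916 with Ctgf. Fst was nearest Ror1 (0.973), Dclk1 (0.971) and Ssr3 (0.969), Tgfb2 nearest Gpx3 (0.968), Rnf165 (0.967) and Srpx (0.967), and Tgfb3 nearest Neo1 (0.962), Gm2a (0.958) and Serpina3n (0.958).

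Grem1 was nearest Anxa9 (0.919), Klhl29 (0.906) and Tnfrsf11b (0.905), Inhba nearest Wac (0.844), Lipo3 (0.789) and Pnrc2 (0.778), and Bmp2 nearest St6gal1 (0.84), Cxcl2 (0.835) and Nr4a2 (0.812). Among the 9 themselves, the closest pairs were Tgfb2 with Fst (0.95), Bmp4 with Chrdl1 (0.882) and Tgfb2 with Fstl1 (0.881).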

How the data were processed

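RNA of 15 libraries (5 sorted populations, 3 replicates each) was amplified, sequenced and, per the labels and the methods, aligned by the authors with TopHat2 in Partek Flow. The authors deposited RPKM for 12698 transcripts (build mm10 in the submitters' processing notes), of which 0.323% stayed below 1 RPKM throughout. The filter that made this list is not given in the sources used here. Errors are those between libraries, at 42711843 to 60773158 alignments each.

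RPKM was summed per symbol. Groups came from the sample titles. The log2(RPKM + 1) values of each pair of populations were compared by limma 3.58.1 (R 4.3.3, lmFit and trended eBayes). Genes entered where 3 or more of the 6 libraries reached 1 RPKM, and p was adjusted over all of them (Benjamini-Hochberg, threshold 0.05). The fit was also run on simulated data with independent noise. Those data held no lane or replicate structure, so the run does not vouch for the fit on these libraries. Tables and plots used Python 3.11.15, numpy 2.4.6, pandas 2.3.3 and matplotlib 3.10.9. Alternatives were the replicate number as a block, lane, all libraries in 1 fit, 2 other scalings, a pseudocount of 0.1, other filters, the most abundant transcript and each library left out. Named are the 9 genes, up to 3 genes of each pathway list with the largest changes past the threshold in each comparison, the 3 genes most correlated with each of the 9, Il33 and marker genes. Some genes that this rule names are not reported here. The 9 genes and all lists were chosen with earlier results of these data known. Promoters were from RefSeq and transcript structures from GENCODE, both on GRCm38.p6.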

Additional observations from a re-analysis of the deposited data

How the results depend on the processing

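Of 517 alternative values of the 9 genes, 497 kept direction and side of the threshold. For Il33 and the other named genes 548 of 627 did, and 77 no longer passed it. Between Il33+ and Il33- WAT-MSC the 133 genes became 45 without a filter and 55 to 122 with 1 library left out (82 or fewer without any but Il33- WAT-MSC replicate 1), and the 1 of 9 became 2 with median-ratio scaling. Against lung Il33+ MSC the 513 genes became 336 in a fit of all 15 libraries and 261 to 502 with 1 library left out (261 without lung Il33+ MSC replicate 2). The 2 of 9 became 1 under the stricter filter, where 7 of the 9 were tested, and 1 to 2 with 1 library left out. Against WAT endothelial cells the 338 genes became 805 in the fit of all libraries and 131 to 447 with 1 left out (163 or fewer without Il33+ WAT-MSC replicate 1, 2 or 3 or endothelial replicate 2), and 0 of 9 became 2 and 0 to 1.

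Values that changed sign were small and past the threshold in no setting. With 1 library left out, Tgfb3 ranged from -0.0315 (without Il33+ WAT-MSC replicate 1) to 0.53 between the WAT-MSC populations. Against lung Il33+ MSC, Bmp2 ranged from -0.13 to 0.61 and Il33 from -0.26 to 0.24 (-0.11 and -0.26 without Il33+ WAT-MSC replicate 2, -0.13 and -0.02 without lung Il33+ MSC replicate 2), and Inhba from -0.0844 (without Il33+ WAT-MSC replicate 2) to 1.003. Against endothelial cells Bmp2 ranged from -0.0849 (without Il33+ WAT-MSC replicate 2) to 0.53 and Bmp4 from -0.50 to 0.17 (0.17 without that replicate, 0.05 without endothelial replicate 3).

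The replicate block raised the first comparison to 232 genes and 3 of the 9 (Bmp4, Grem1 and Chrdl1). Same-numbered libraries did not deviate together there beyond a mean r of 0.07 (0.044 to 0.106), and means in the other comparisons were 0.006 to 0.087, so the numbers were not taken as pairs. Every library correlated best with its own number in that comparison and in the lung pair. Against lung Il33+ MSC the block gave 454 genes and 3 of the 9, against endothelial cells 335 and 0, and in lung 4186 and 7 of 8. The order of levels kept its top population for 9 of 9 genes under median-ratio scaling and the whole order for 6. With the most abundant transcript the whole order was kept for 9 genes. There Bmp4 in lung Il33+ MSC (61.9 RPKM or more) overlapped WAT endothelial cells (65.0 RPKM or less). Chrdl1 in Il33+ WAT-MSC overlapped WAT endothelial cells with the most abundant transcript and under median-ratio scaling. Read counts per gene were not used, so no counting interval is given, and 3 libraries a population limit the precision.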
